A study of Homo sapiens with 4 samples.

Results

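The genes described here are 9 transcripts that TGF-β signalling is known to raise or that act on it. TAGLN, TPM1, TPM4 and ACTA2 belong to the actin cytoskeleton. PMEPA1, TGIF1, BHLHE40, SPHK1 and FSTL3 are grouped here as feedback genes. That name is a label: BHLHE40 and SPHK1 are included as response genes, and feedback was not measured for any of them. All 9 genes were chosen by symbol and were found among the 23143 gene symbols of the deposited table. Its values are FPKM, fragment counts corrected for transcript length and for the size of the library. The RNA came from A549i cells, which are A549 human lung adenocarcinoma cells, a cell line, in which doxycycline overexpresses GATA4, a DNA-binding regulator of heart and gut development. Polyadenylated RNA was sequenced from 2 libraries of cells given doxycycline (DOX, GATA4 overexpressed) and 2 libraries of cells given vehicle (noDOX, GATA4 at its normal level). The labels give no dose or duration of doxycycline, and DOX cells without the inducible GATA4 were not analysed here, so the drug and the GATA4 it induces cannot be told apart.

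TGF-β binds a pair of receptor kinases that phosphorylate receptor SMADs, which enter the nucleus with SMAD4 and bind DNA at short CAGAC-like boxes. In epithelial and mesenchymal cells the pathway raises contractile proteins of actin filaments, many of them also controlled by serum response factor (SRF) through CArG boxes. It also raises its own inhibitors: PMEPA1 is a membrane protein that holds receptor SMADs away from the receptor, and TGIF1 is a homeodomain corepressor of SMADs.

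Sequence just upstream of annotated starts shows which exact matches to such motifs the genes carry. RefSeq promoter windows on GRCh38.p14 were matched by symbol for 8 of the 9 genes, with TAGLN not matched, and gave 22 start sites. The 250 bases before each start were searched on both strands. The motifs were CAGAC for SMADs, CCWWWWWWGG (W is A or T) for the CArG box of SRF, and AGATAA or TGATAA for GATA factors. The others were CACGTG, the E-box that BHLHE40 protein itself can bind, TGACTCA or TGAGTCA for AP-1, and CATTCC for TEAD factors. Only exact matches were counted. The stretches below are shown because they carry matches and lie outside exons of GENCODE release 29, apart from those of 30 bases around single matches. They run 5′ to 3′ on the gene's strand, and capitals mark matches to any of these motifs.
TPM4 chr19:16067307-16067506 (+ strand): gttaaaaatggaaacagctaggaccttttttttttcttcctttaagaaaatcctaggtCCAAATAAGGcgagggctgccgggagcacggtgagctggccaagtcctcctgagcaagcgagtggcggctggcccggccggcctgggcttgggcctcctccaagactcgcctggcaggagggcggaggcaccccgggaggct
FSTL3 chr19:676351-676380 (+ strand): gcccgcgggaCCTTTATAGGgagcgccggc
ACTA2 chr10:88952774-88953023 (- strand): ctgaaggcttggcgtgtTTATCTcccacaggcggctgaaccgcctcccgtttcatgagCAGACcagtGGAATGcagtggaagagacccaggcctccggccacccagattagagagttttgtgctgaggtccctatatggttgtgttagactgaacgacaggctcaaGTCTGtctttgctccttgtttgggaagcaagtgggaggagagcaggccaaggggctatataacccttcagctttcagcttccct
PMEPA1 chr20:57690687-57690936 (- strand): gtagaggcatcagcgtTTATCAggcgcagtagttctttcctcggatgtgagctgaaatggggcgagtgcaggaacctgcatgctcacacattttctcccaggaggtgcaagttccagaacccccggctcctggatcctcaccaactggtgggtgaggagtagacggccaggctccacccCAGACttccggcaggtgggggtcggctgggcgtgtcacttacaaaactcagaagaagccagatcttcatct
PMEPA1 chr20:57710676-57710705 (- strand): gccccttgggcagCAGACaatgggtgtgga
TGIF1 chr18:3448181-3448430 (+ strand): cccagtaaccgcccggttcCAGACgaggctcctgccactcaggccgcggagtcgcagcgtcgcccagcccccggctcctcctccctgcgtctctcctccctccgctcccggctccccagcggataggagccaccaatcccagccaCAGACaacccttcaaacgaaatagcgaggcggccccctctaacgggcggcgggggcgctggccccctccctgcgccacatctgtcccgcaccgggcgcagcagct
BHLHE40 chr3:4979187-4979216 (+ strand): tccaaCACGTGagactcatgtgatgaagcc
BHLHE40 chr3:4979247-4979276 (+ strand): ccccggcagtggcCAGACgtgcctggagtc
SPHK1 chr17:76385195-76385224 (+ strand): gccacggggctcTGACTCAtccgtcgggcc

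The CArG box was in 2 of the 22 windows, as CCAAATAAGG beginning 173 bases before a TPM4 start and as CCTTTATAGG beginning 31 bases before the FSTL3 start. It was in 1.16% of all 35116 windows of this length. The ACTA2 stretches ccctatatgg and ccttgtttgg each differ from the CArG pattern by 1 base and were not counted. CAGAC was in 11 windows of 6 genes, against 38% of all windows, and the GATA motif was in 3 windows, of ACTA2, PMEPA1 and TGIF1, against 14.6% of all windows. The E-box was in the BHLHE40 window (6.34% of all windows) and the AP-1 motif in 1 SPHK1 window (4.2%). CATTCC was in 4 windows (11.9%). Windows of TGIF1 overlap and share a CAGAC and a CATTCC match, and no matches to different motifs overlapped. These are matches of letters and not measured binding.

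GATA4 was at 75.0 and 48.0 FPKM in the DOX libraries and at 12.2 and 14.5 FPKM in the noDOX libraries, higher in DOX as labelled (log2 difference 2.09, SE 0.30; limma, adjusted p = 0.289). FPKM sums ran from 975728 to 1381820, small RNA genes held 34.8 to 41.9% of them, and the read depth is unknown, so no counting error can be given. The 6 epithelial markers summed to 5016 and 9623 FPKM in DOX libraries and 7812 and 5582 FPKM in noDOX libraries, most of it KRT8 and KRT18. KRT7 was at 197 and 1360 FPKM in DOX, against 1944 and 1476 FPKM in noDOX libraries, and EPCAM was at 3.83 and 3.08 FPKM in DOX, against 8.27 and 13.7 FPKM in noDOX libraries. KRT19 ran from 7.49 to 87.0 FPKM and CDH1 from 8.73 to 25.8 FPKM, with overlapping groups. The 5 endothelial markers summed to 0.117 to 0.193 FPKM. The 8 fibroblast markers summed to 2.30 and 3.17 FPKM in DOX and to 4.30 and 9.92 FPKM in noDOX libraries, most of it COL1A1, with DCN listed at 0 throughout. The smooth muscle markers MYH11, CNN1 and ACTG2 were below 0.25 FPKM in every library. The 6 markers of that list summed to 4.89 and 3.71 FPKM in DOX and 4.68 and 9.27 FPKM in noDOX libraries, led by SYNPO2. SYNPO2 was at 1.91 and 1.81 FPKM in DOX, against 3.34 and 7.32 FPKM in noDOX libraries. LMOD1 was at 0.809 and 0.755 FPKM in DOX, against 0.850 and 1.16 FPKM in noDOX libraries. DES went the other way, at 1.74 and 0.748 FPKM in DOX, against 0.129 and 0.359 FPKM in noDOX libraries. The 6 blood cell markers summed to 2.46 and 16.5 FPKM in DOX and 8.14 and 6.31 FPKM in noDOX libraries, most of it CD14. The part of these markers in the results was not tested. In 80.9% of 12112 tested genes outside the small RNA classes, DOX 1 differed from DOX 2 in the opposite direction to noDOX 1 from noDOX 2, so noDOX 2 resembles DOX 1, and noDOX 1 DOX 2, in the part of the variation that the groups do not share.

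The 9 genes were tested within the 12504 genes that had a mean of at least 1 FPKM, all 9 passing that filter. Differences are on log2(FPKM + 1), DOX minus noDOX, with limma's moderated standard error and p-values adjusted by Benjamini-Hochberg over all tested genes. None of the 9 passed at 0.05 in either direction, against 11 of all tested genes (0.088%), of which 3 were higher in DOX (0.024%) and 8 lower (0.064%). At an unadjusted p under 0.05 there were 3 of the 9, TPM4, PMEPA1 and BHLHE40, against 793 of all genes (6.34%). That count was not stable. With the replicate numbers fitted as a block it was 1 of 9 (PMEPA1), beside 601 of 12504 genes. With the crossed pairing as a block, added after the data were seen, it was 5 of 9, beside 2617 of 12504. With 1 library left out, log2 differences ran from 0.82 to 1.23 for TPM4, -1.50 to -0.66 for PMEPA1 and -1.47 to -0.71 for BHLHE40. A lone library has no spread of its own, so only these sizes are given. For 4 of the 9 the DOX values were both below the noDOX values (17.3% of all tested genes), and for 2 they were both above (14.7% of all). All values that follow therefore describe these libraries, and an exact permutation test of 2 against 2 libraries cannot give a two-sided p below 0.33. The labels do not say whether replicates came from separate cultures, so p-values measure a spread that may be technical.

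**Figure D1:**
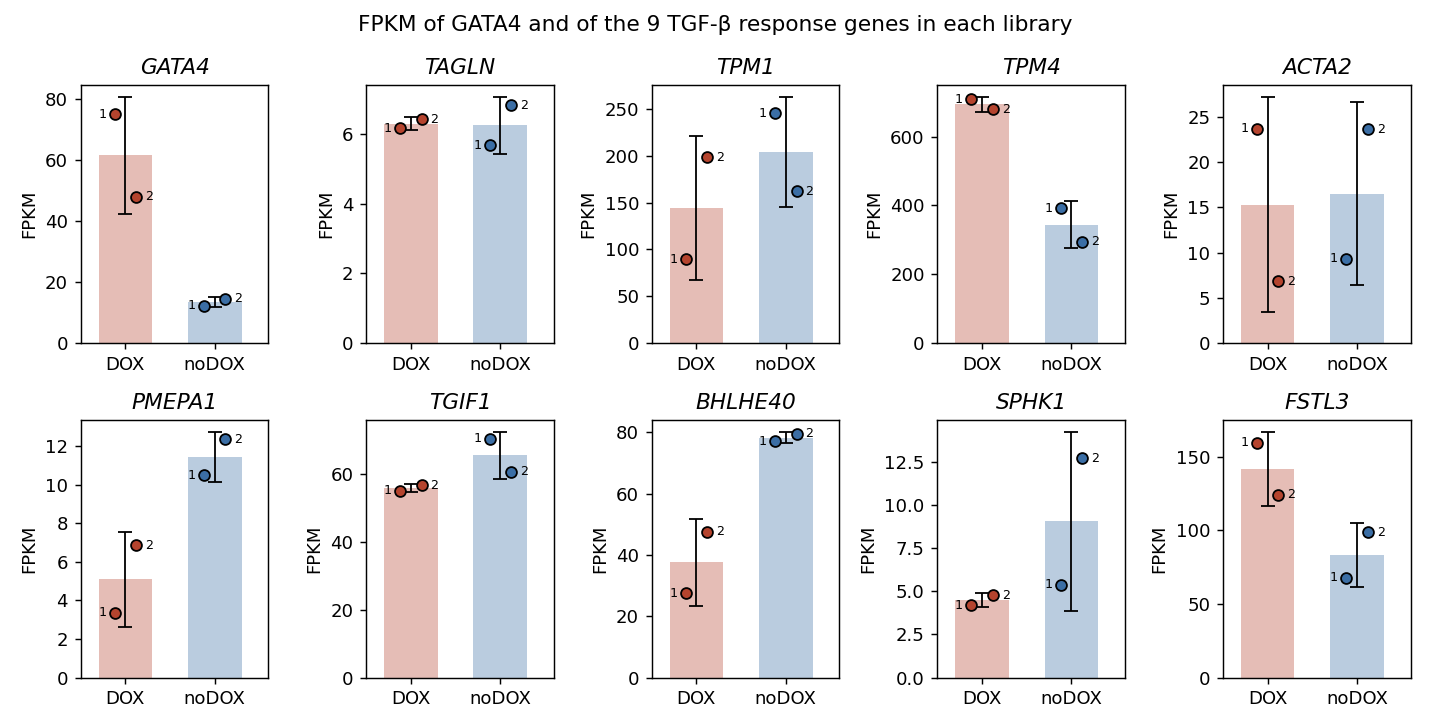
FPKM (vertical axes, each from 0) of GATA4 and of the 9 genes in the DOX libraries (left) and the noDOX libraries (right). Points are libraries with their replicate numbers, bars are means and error bars are SD (n = 2); TPM4 and FSTL3 have both DOX points above the noDOX points, PMEPA1, TGIF1, BHLHE40 and SPHK1 have both below, and ACTA2 has 1 high and 1 low library in each group.

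Among the genes of the actin cytoskeleton, TPM4 was the 1 whose groups did not overlap, and TAGLN was nearly level. TPM4, a tropomyosin of nonmuscle actin filaments, was at 709 and 680 FPKM in the DOX libraries and at 392 and 295 FPKM in the noDOX libraries. The groups did not overlap, and the DOX libraries were within 1.04 times of each other. The means were 694 ± 21 FPKM in DOX and 343 ± 69 FPKM in noDOX (SD, n = 2 each), a ratio of 2.02 and a log2 difference of 1.03 (SE 0.37; limma, unadjusted p = 0.0419, adjusted p = 0.752). TPM4 was the most abundant of the 9 in FPKM in every library, and in DOX 1 it ranked 149 of all symbols.

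TPM1, a tropomyosin of stress fibres and muscle, did not follow TPM4. It was at 89.8 and 199 FPKM in the DOX libraries, against 246 and 162 FPKM in the noDOX libraries. DOX 1 alone was low, DOX 2 lay between the noDOX libraries, and the groups overlapped. DOX minus noDOX was -0.57 on the log2 scale (SE 0.51; limma, adjusted p = 0.999), and it was -0.00 without DOX 1. With each library rescaled to a common sum, both DOX values of TPM1 lay below. In GENCODE release 29, 21.4% of TPM1 exon bases are shared with genes on the other strand. Within a library the ratio of TPM4 to TPM1 FPKM does not depend on the scaling between libraries. That ratio was 7.89 and 3.42 in DOX libraries and 1.6 and 1.82 in noDOX libraries, so the groups did not overlap. The groups of TPM4 alone did not overlap either, and the value of 7.89 includes the low TPM1 of DOX 1. The share of all gene ratios without overlap was not taken.

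The other tropomyosins, TPM2 and TPM3, give the family's balance. TPM2 was at 267 and 557 FPKM in DOX libraries and at 586 and 255 FPKM in noDOX libraries, with a log2 difference of -0.00 (SE 0.62). Each group thus held a low and a high library for TPM2. TPM3 was at 195 and 263 FPKM in DOX libraries, against 199 and 149 FPKM in noDOX libraries. Of the summed FPKM of the 4 tropomyosin genes, TPM4 made up 56.2 and 40.0% in DOX libraries and 27.6 and 34.2% in noDOX libraries. The share of TPM1 was 7.12 and 11.7% in DOX libraries, against 17.3 and 18.8% in noDOX libraries. Neither share overlapped between the groups, and how often such shares separate in these libraries was not taken.

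**Figure D2:**
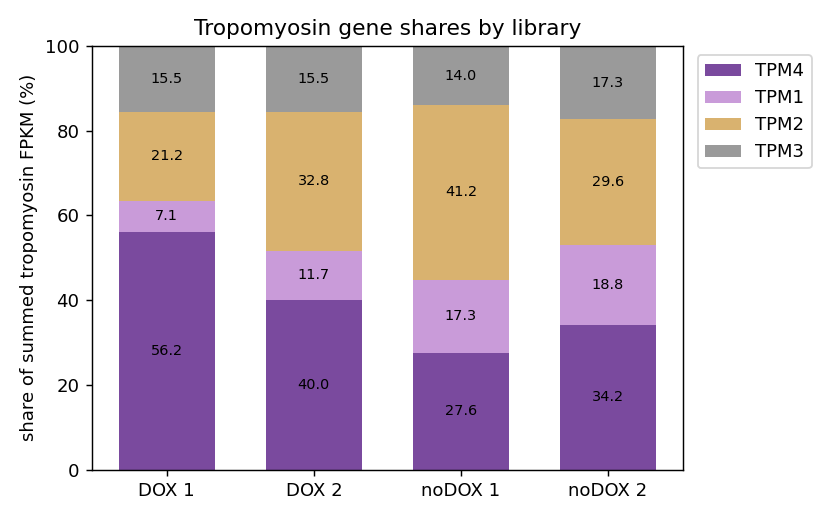
Share of the summed FPKM of the 4 tropomyosin genes (vertical axis, percent) in each library, with the DOX libraries left of the noDOX libraries. TPM4 holds 56.2 and 40.0% in the DOX libraries and 27.6 and 34.2% in the noDOX libraries, while TPM2 varies as much within a group as between groups.

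TAGLN encodes transgelin, an actin-binding protein of smooth muscle that TGF-β raises in many cells. It was at 6.18 and 6.44 FPKM in DOX libraries and at 5.69 and 6.83 FPKM in noDOX libraries, so the DOX values lay between the noDOX values. DOX minus noDOX was 0.01 on the log2 scale (SE 0.18; limma, adjusted p = 0.999), with a 95% interval of -0.47 to 0.50. TAGLN shares 11.4% of its exon bases with PCSK7, a gene of the opposite strand. PCSK7 was at 8.04 and 8.66 FPKM in DOX libraries and 7.02 and 5.02 FPKM in noDOX libraries. TAGLN2, the paralog of TAGLN in nonmuscle cells, was at 376 and 566 FPKM in DOX libraries, against 469 and 339 FPKM in noDOX libraries, and TAGLN3 was listed at 0 in all libraries but DOX 2.

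ACTA2 encodes smooth muscle α-actin, the usual marker of myofibroblasts. It was at 23.7 and 6.85 FPKM in DOX libraries and at 9.32 and 23.7 FPKM in noDOX libraries. DOX 1 and noDOX 2 were high and nearly equal, DOX 2 and noDOX 1 were low, and the groups overlapped. The spread within a group, 3.46 times in DOX and 2.54 times in noDOX, was larger than the ratio of the means, 0.926. On the log2 scale the difference was -0.20 (SE 0.71; limma, adjusted p = 0.999), and it was 0.63 without DOX 2 and 0.43 without noDOX 2. The other muscle actins, ACTA1, ACTC1 and ACTG2, were below 0.25 FPKM in every library, whereas ACTB was at 1842 and 1373 FPKM in DOX and 1069 and 1785 FPKM in noDOX libraries. ACTG1 was at 1504 and 1045 FPKM in DOX and 1107 and 1585 FPKM in noDOX libraries, and its groups overlapped. In GENCODE release 29, 30.1% of ACTA2 exon bases are shared with genes on the other strand, FAS and ACTA2-AS1, and no source used here gives the strand setting. The part of reads from that strand in the ACTA2 values was not tested.

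Of the 5 genes grouped as feedback genes, 4 had both DOX libraries lower (17.3% of all tested genes) and FSTL3 had both higher (14.7% of all). TGIF1 and SPHK1 overlapped after rescaling to a common sum, and FSTL3 did when small RNA genes were also removed. PMEPA1 was at 3.37 and 6.85 FPKM in DOX libraries, against 10.5 and 12.4 FPKM in noDOX libraries. Every DOX value was lower than every noDOX value, with DOX 1 the lowest. The means were 5.11 ± 2.46 FPKM in DOX and 11.4 ± 1.3 FPKM in noDOX (SD, n = 2 each), a ratio of 0.448. The log2 difference was -1.08 (SE 0.33; limma, unadjusted p = 0.0265, adjusted p = 0.672). Leaving out DOX 1 gave -0.66 and leaving out DOX 2 gave -1.50. Its relative LDLRAD4, listed as C18orf1, was below 0.5 FPKM in every library and was not tested.

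BHLHE40, a basic helix-loop-helix repressor that answers to TGF-β, hypoxia and the circadian clock, had a similar pattern at a higher level. It was at 27.6 and 47.6 FPKM in DOX libraries and at 77.0 and 79.6 FPKM in noDOX libraries. The noDOX libraries were within 1.03 times of each other, and both DOX libraries lay below them, DOX 1 the lower. The ratio of means was 0.480, and the log2 difference was -1.09 (SE 0.34; limma, unadjusted p = 0.0273, adjusted p = 0.673). Leaving out DOX 1 or DOX 2 gave -0.71 or -1.47. Its paralog BHLHE41 was at 1.18 and 0.804 FPKM in DOX libraries and at 0.695 and 2.30 FPKM in noDOX libraries, so the groups overlapped.

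TGIF1 was at 55.1 and 56.8 FPKM in DOX libraries, against 70.4 and 60.7 FPKM in noDOX libraries. The groups did not overlap, but the gap between the nearest libraries was small beside the spread of the noDOX libraries. DOX minus noDOX was -0.22 on the log2 scale (SE 0.24; limma, adjusted p = 0.999), with a 95% interval of -0.86 to 0.41. Without noDOX 1 it was -0.12. TGIF2, its paralog, was at 2.13 and 1.26 FPKM in DOX libraries, against 1.35 and 3.88 FPKM in noDOX libraries.

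SPHK1 makes sphingosine 1-phosphate, a lipid signal that acts beside TGF-β in fibrosis. It was at 4.20 and 4.79 FPKM in DOX libraries and at 5.38 and 12.7 FPKM in noDOX libraries. NoDOX 2 alone was high, and noDOX 1 was close to the DOX libraries. The log2 difference was -0.77 (SE 0.40; limma, adjusted p = 0.947), and without noDOX 2 it was -0.22. SPHK2, the other sphingosine kinase, was at 8.83 and 8.48 FPKM in DOX libraries, against 8.26 and 7.63 FPKM in noDOX libraries.

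FSTL3 is a secreted follistatin-like protein that binds and blocks activins and myostatin, relatives of TGF-β. It was at 159 and 124 FPKM in DOX libraries, against 67.9 and 98.6 FPKM in noDOX libraries. The DOX libraries were the higher ones, and noDOX 2 came nearest to them. The means were 142 ± 25 FPKM in DOX and 83.3 ± 21.7 FPKM in noDOX (SD, n = 2 each), 1.70 times as high. This was a log2 difference of 0.77 (SE 0.33; limma, adjusted p = 0.858). Without noDOX 1 it was 0.51. FST, which encodes follistatin, was at 6.32 and 4.22 FPKM in DOX libraries and 5.45 and 2.42 FPKM in noDOX libraries. FSTL1, a more distant relative, was at 15.7 and 13.2 FPKM in DOX libraries, against 14.7 and 26.1 FPKM in noDOX libraries. The ratio of FSTL3 to FST within a library was 25.2 and 29.4 in DOX and 12.5 and 40.8 in noDOX, so the groups overlapped. The ratio of FSTL3 to FSTL1 within a library was 10.2 and 9.40 in DOX and 4.61 and 3.77 in noDOX.

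**Figure D3:**
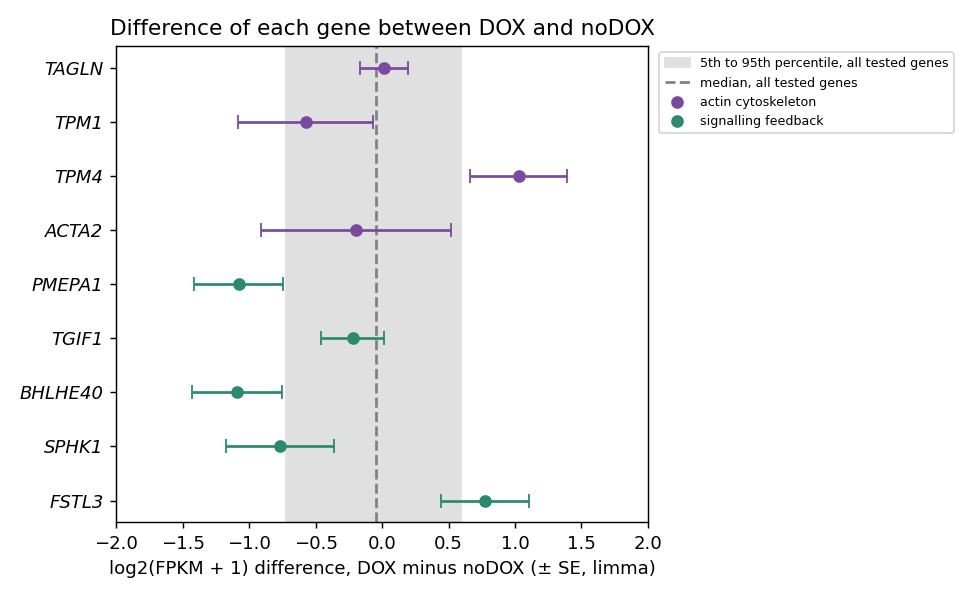
Difference between DOX and noDOX of each of the 9 genes (horizontal axis, log2(FPKM + 1), DOX minus noDOX), with limma's standard error (n = 2 each). The grey band runs from the 5th to the 95th percentile of all tested genes, -0.725 to 0.593. TPM4 and FSTL3 lie right of the band, PMEPA1, BHLHE40 and SPHK1 lie left of it, and the standard errors of SPHK1 and FSTL3 reach into it.

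The median log2 difference of the 9 genes was -0.22 and that of the 4 cytoskeletal genes -0.09, beside -0.04 over all tested genes. For the 5 genes grouped as feedback genes it was -0.77, which is the value of SPHK1. With a gene as low as TAGLN and a gene as high as TPM4, the 9 spanned means from 6.28 to 519 FPKM over the 4 libraries. In falling order the means ran TPM4, TPM1, FSTL3, TGIF1, BHLHE40, ACTA2, PMEPA1, SPHK1 and TAGLN. TPM4 exceeded TPM1 in every library. The neighbours TGIF1 and BHLHE40 changed places between libraries, as did FSTL3 with TPM1, TGIF1 and BHLHE40, and the last 4 among themselves.

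Replicates of 1 group differed by amounts that bear on each gene. For ACTA2 and TPM1 the sign of the difference between DOX 1 and DOX 2 was opposite to that between noDOX 1 and noDOX 2, as it was for TGIF1 and FSTL3. ACTA2 was 1.65 log2 units higher in DOX 1 than in DOX 2 and 1.26 lower in noDOX 1 (-1.26) than in noDOX 2. PMEPA1, BHLHE40, SPHK1 and TAGLN were lower in replicate 1 in both groups, and TPM4 was higher. The opposite sign was seen in 4 of the 9 genes (44.4%), beside 80.9% of the 12112 tested genes outside the small RNA classes. The part of this library pattern in the differences between DOX and noDOX was not tested.

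**Figure D4:**
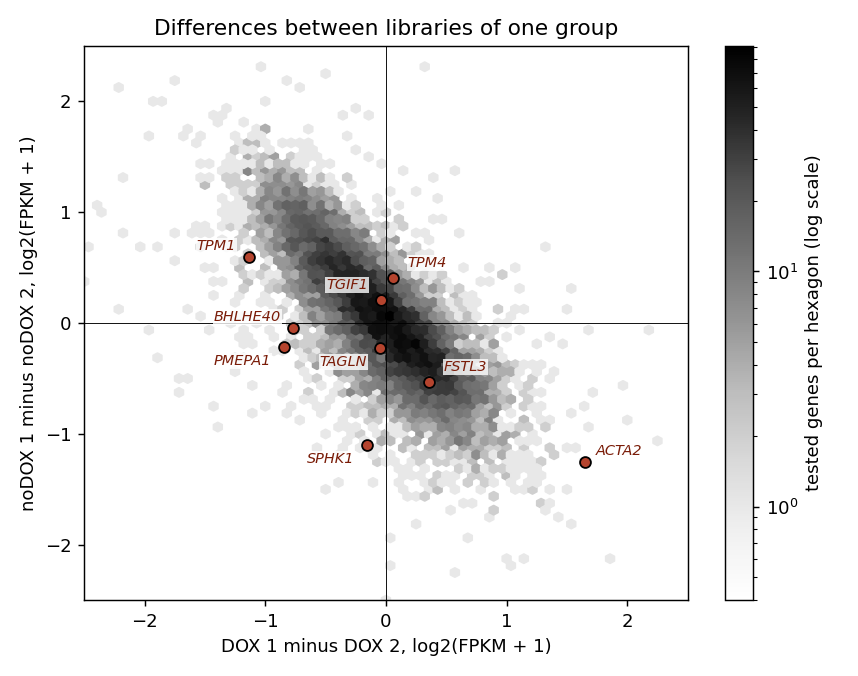
Difference between the libraries of 1 group in log2(FPKM + 1), DOX 1 minus DOX 2 on the horizontal axis and noDOX 1 minus noDOX 2 on the vertical axis, for tested genes outside the small RNA classes (grey hexagons, darker for more genes on a log scale; 12 genes lie beyond the axes) and for the 9 genes (red). The cloud runs from upper left to lower right, ACTA2 lies at its lower right end and PMEPA1, BHLHE40 and SPHK1 lie left of or below the centre.

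Genes with the most similar library profiles were found for TAGLN and PMEPA1 among 6183 other genes at a mean of 10 FPKM or more. Likeness was the root mean square difference of their deviations over the 4 libraries, in log2 units. Nearest to TAGLN were UNC45A, a myosin chaperone (0.0139), BSG, which encodes basigin (0.0157), and SPRYD3 (0.0172), but 396 genes lay within 0.1 of this nearly level profile. Nearest to PMEPA1 were ID3, an inhibitor of helix-loop-helix factors (0.1), the glycolytic regulator PFKFB3 (0.107) and the AP-1 subunit JUN (0.119). ID3 was at 119 and 232 FPKM in DOX libraries and 382 and 404 FPKM in noDOX libraries. With 4 libraries such likeness is a description of these samples.

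Of 148 other genes in 7 lists around the pathway, 117 were tested, 0 passed in either direction (limma) and 19 (16.2%) had an unadjusted p under 0.05, beside 6.34% of all tested genes. Of these 19, 11 came from the 22 other TGF-β target genes, and the remaining 6 lists gave 8 of 95 (8.42%). All 7 lists were chosen with earlier results of these data known. Their shares, here and in the paragraphs below, are therefore descriptions and no independent evidence. Among 29 tested contractile and SRF target genes, both DOX libraries lay below in 7 (24.1%, beside 17.3% of all) and above in 4 (13.8%, beside 14.7%), and the median log2 difference was -0.00. FHL2, a cofactor of SRF, was at 4.87 and 8.11 FPKM in DOX libraries and 14.5 and 12.8 FPKM in noDOX libraries. The actin-associated PDZ-LIM genes PDLIM7 and PDLIM5 had log2 differences of -0.70 (SE 0.23) and -0.96 (SE 0.33). MYH9, nonmuscle myosin heavy chain, was at 132 and 87.7 FPKM in DOX libraries, against 50.7 and 72.8 FPKM in noDOX libraries. SRF itself was at 9.74 and 10.03 FPKM in DOX and 10.5 and 10.7 FPKM in noDOX libraries.

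The 18 tested feedback and corepressor genes were split evenly, 9 with differences below 0 and 9 above, with a median of -0.00. SMAD7, an inhibitory SMAD that the pathway induces, was at 4.08 and 7.12 FPKM in DOX libraries and 8.09 and 8.83 FPKM in noDOX libraries. SMAD6, another inhibitory SMAD, had a log2 difference of -0.39 (SE 0.24), and the ubiquitin ligase gene NEDD4 had -0.41 (SE 0.19). SMURF1, a ligase for receptors and SMADs, had 0.54 (SE 0.31). In 4 of the 18 the DOX values were both below the noDOX values (22.2%, beside 17.3% of all), and in 2 both above (11.1%, beside 14.7%).

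Other TGF-β target genes stood lower in the DOX libraries: 15 of 22 had both DOX libraries below (68.2%, beside 17.3% of all tested genes). In 1 both lay above (4.55%, beside 14.7%), and the median log2 difference was -0.95. This list was chosen with earlier results of these data known and is no independent evidence of direction. CTGF, a matricellular protein, was at 5.04 and 4.75 FPKM in DOX libraries and 11.01 and 11.02 FPKM in noDOX libraries (limma, adjusted p = 0.374). The AP-1 gene JUNB stood at 14.0 and 24.5 FPKM in DOX libraries, against 60.5 and 68.9 FPKM in noDOX libraries (adjusted p = 0.455). The lipase inhibitor ANGPTL4 had a log2 difference of -1.89 (SE 0.43). VEGFA, an angiogenic factor, was the 1 gene of the list with both DOX libraries above, with a difference of 1.09 (SE 0.24). Of the ligands, receptors and SMADs, 8 were tested, and TGFBR1, the type I receptor, was at 13.4 and 20.1 FPKM in DOX libraries and 3.18 and 4.54 FPKM in noDOX libraries (limma, adjusted p = 0.335). TGFB2, a ligand, had a log2 difference of -0.93 (SE 0.28), TGFBR2, the type II receptor, 0.79 (SE 0.34), and SMAD4 0.14 (SE 0.17).

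**Figure D5:**
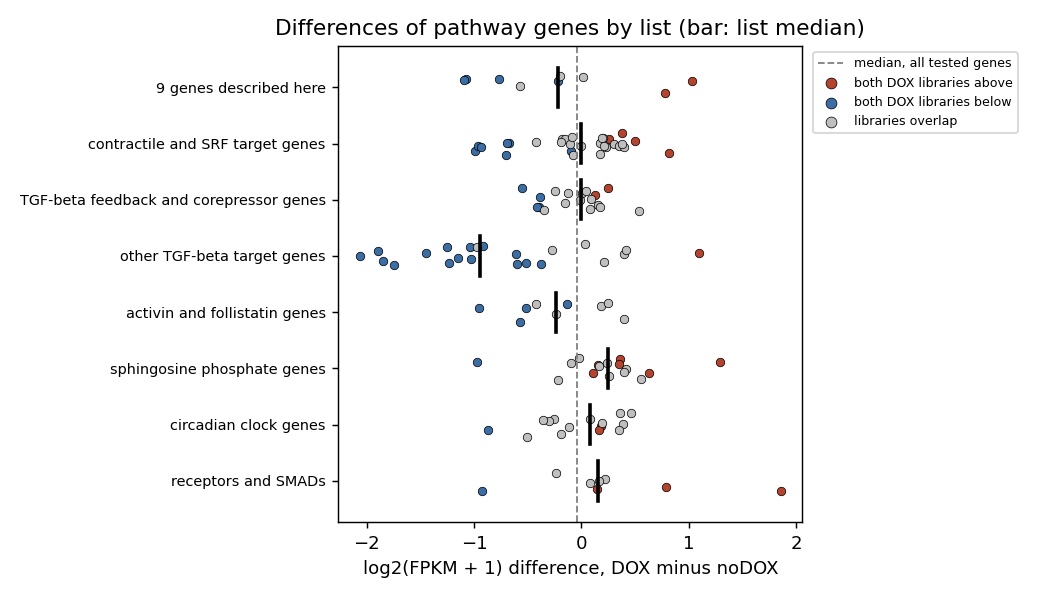
Differences between DOX and noDOX (horizontal axis, log2(FPKM + 1), DOX minus noDOX) of the 9 genes and of the tested genes of 7 lists, 1 point a gene, with list medians as bars and the median of all tested genes as a dashed line. Red and blue mark genes with both DOX libraries above or below both noDOX libraries, and the list of other TGF-β target genes lies furthest left, with a median of -0.95.

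Around FSTL3, 9 activin and follistatin genes were tested, of which 4 had both DOX libraries below (44.4%, beside 17.3% of all tested genes) and 0 above (beside 14.7%). INHBB, an activin subunit, was at 7.19 and 23.1 FPKM in DOX libraries and 27.1 and 25.5 FPKM in noDOX libraries. GDF15, a stress-induced cytokine, was at 166 and 122 FPKM in DOX libraries, against 240 and 189 FPKM in noDOX libraries, and INHBE and FSTL1 had log2 differences of -0.51 (SE 0.27) and -0.42 (SE 0.33). The list median was -0.24, while FSTL3 was at 0.77.

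Around SPHK1, 16 genes of sphingosine phosphate metabolism and signalling were tested, with a median log2 difference of 0.24. Both DOX libraries lay above in 6 (37.5%, beside 14.7% of all tested genes) and below in 1 (6.25%, beside 17.3%). S1PR3, a receptor for the lipid, was at 13.4 and 8.34 FPKM in DOX libraries and 2.37 and 5.68 FPKM in noDOX libraries. The lipid phosphatase gene PPAP2A was the 1 below, at 18.5 and 24.2 FPKM in DOX libraries, against 41.4 and 43.8 FPKM in noDOX libraries. SPTLC2, of the first step of sphingolipid synthesis, had a log2 difference of 0.63 (SE 0.25), and SGPL1, the lyase that degrades the lipid, had 0.36 (SE 0.23).

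Around BHLHE40, 15 circadian clock genes were tested, with a median of 0.08, both DOX libraries above in 2 (13.3%, beside 14.7% of all tested genes) and below in 1 (6.67%, beside 17.3%). NFIL3, a clock repressor, was the 1 below, at 5.43 and 6.64 FPKM in DOX libraries and 13.6 and 10.3 FPKM in noDOX libraries. The clock genes ARNTL2, DBP and TEF had log2 differences of 0.36 (SE 0.25), -0.51 (SE 0.37) and 0.46 (SE 0.36), and their groups overlapped.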

How the data were processed

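Polyadenylated RNA of 4 A549i libraries was sequenced. The authors deposited 1 table of FPKM with 1 column a library, and per the submitters' processing notes TopHat2 2.0.10, Bowtie, Cufflinks 2.2.1 and Cuffdiff were used on hg19. No source used here gives the annotation, the strand setting or the scaling across libraries. The unit rests on the table's name and its values. Values were tested on log2(FPKM + 1) with limma 3.58.1 (R 4.3.3). Each group had its mean, the variance was moderated with a trend on 2 residual degrees of freedom, and genes averaging under 1 FPKM were left out. The pseudocount of 1 understates differences of low genes.

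The 9 genes, the lists and the rules were chosen with earlier results of these data known. Named were all 9 genes, their paralogs, up to 4 genes a list with the smallest p, and the 3 nearest profiles of TAGLN and PMEPA1. The cell markers, ACTB, ACTG1, SRF and PCSK7 were named after their values were seen. Alternatives covered the pseudocount, filter, scaling, small RNA genes, moderation, a replicate block and each library left out. Promoter sequences are RefSeq's on GRCh38.p14. Exons are from GENCODE release 29 on GRCh38. The FPKM table has no coordinates.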

Additional observations from a re-analysis of the deposited data

How the results depend on the processing

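None of the 9 genes passed under any of the 15 alternatives (limma). TPM1, TPM4, PMEPA1, TGIF1, BHLHE40, SPHK1 and FSTL3 kept the sign of their log2 difference in all of them. TAGLN and ACTA2 changed sign with the library left out. For TAGLN the difference was -0.01 without DOX replicate 2 and -0.10 without noDOX replicate 1, and up to 0.13 without noDOX replicate 2. For ACTA2 it was 0.63 without DOX replicate 2 and 0.43 without noDOX replicate 2, and down to -1.02 without DOX replicate 1. With 1 library left out, ACTA2, TPM1 or TAGLN joined the genes whose groups did not overlap. Groups of 2 and 1 libraries separate more easily than groups of 2 and 2. No share of all genes was taken for these settings, so no count is given.

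Among all genes the 11 calls (3 higher, 8 lower) became 1 without a filter (lower), 1 with small RNA genes left out (higher) and 1 with small RNA genes removed and libraries rescaled (1 higher, 0 lower). With 1 library left out they ran from 41 to 63, where the lone library of a group is assumed to vary like the others, and the cause was not tested. With small RNA genes removed and libraries rescaled, the groups of FSTL3, TGIF1 and SPHK1 overlapped and those of TPM1 no longer did. TPM4, PMEPA1 and BHLHE40 stayed without overlap. The share of all genes without overlap was not taken for this setting. The median log2 difference of all genes moved to 0.08 from -0.04. Relative to that median TPM4 was at 1.08 and FSTL3 at 0.83, and PMEPA1 at -1.09.

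Replicate numbers do not pair the libraries in the labels. Over 12112 genes the differences between replicates 1 and 2 of DOX and of noDOX had a correlation of -0.758. With the replicate block 65 genes were called. Under it 1 of the 9 genes (PMEPA1) had an unadjusted p under 0.05 (limma), beside 601 of all 12504 tested genes. With the crossed pairing as a block, added after the data were seen, 7 genes were called. Under it 5 of the 9 had such a p, beside 2617 of all 12504 tested genes. Over the alternatives that kept every library, the genes with such a p ran from 415 to 2617. The depth is unknown, so no limit from counting can be given.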
